A study of Arabidopsis thaliana with 12 samples.

Results

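The 4 PDX1 and PDX2 genes of the vitamin B6 synthesis complex of Arabidopsis thaliana were followed over increasing doses of Rose Bengal: PDX1.1 (AT2G38230), PDX1.3 (AT5G01410), PDX1.2 (AT3G16050) and PDX2 (AT5G60540). They were taken by locus identifier from the deposited table, and all 4 were among its 13307 genes. RNA came from whole wild type Col-0 seedlings aged 2 weeks, kept for 2 h in light in Rose Bengal (RB) at 0, 10, 100 or 400 µM, with 3 libraries per dose. Rose Bengal is a dye that produces singlet oxygen, a reactive form of oxygen, when lit. The RB 0 µM seedlings were handled in the same way without the dye, so light, transfer and incubation in liquid were common to every group. For RNA work the study's methods describe 3 biological replicates per treatment, each a pool of whole seedlings. Its section on the sequencing libraries and the labels do not repeat this, and p-values measure the spread between these libraries, of which a part may be technical.

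Vitamin B6 is a family of pyridine compounds whose active form, pyridoxal 5′-phosphate (PLP), serves many enzymes of amino acid metabolism, and the free vitamers can quench singlet oxygen. Plants build PLP with an enzyme complex of 2 proteins. PDX2 is a glutaminase that releases ammonia from glutamine, and PDX1 is the synthase that joins this ammonia to a pentose phosphate and a triose phosphate. PDX1.1 and PDX1.3 are the catalytic synthases of Arabidopsis. PDX1.2 belongs to the same family but lacks synthase activity, and it assembles with the catalytic forms.

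PDX1.2 rose about 4-fold at the lowest dose of the dye and stayed there at the higher doses, whereas none of the other 3 genes passed the test at any dose. In CPM, reads of a gene per 1000000 reads of its library after the library size was adjusted by edgeR's TMM factor, PDX1.2 went from 12.1 ± 2.60 (SD, n = 3) at RB 0 µM to 47.2 ± 12.0 at 10 µM, 47.1 ± 15.8 at 100 µM and 49.6 ± 11.4 at 400 µM. The catalytic synthases and the glutaminase stood at 0.834 to 1.27 times their untreated level in the comparisons with RB 0 µM. PDX1.2 itself was higher in all 9 treated libraries than in all 3 untreated ones, as 5.01% of genes were, and so was its ratio to each of the other members.

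All 4 genes were placed on TAIR10.1 with the RefSeq annotation. PDX1.1 lies at chr2:16011233-16012515 on the plus strand in 1 exon with a coding length of 930 bases. PDX1.3 lies at chr5:171889-173663 on the minus strand, also in 1 exon and with a coding length of 930 bases. PDX1.2 lies at chr3:5443950-5445329 on the minus strand in 1 exon with a coding length of 945 bases. PDX2 lies at chr5:24336623-24338802 on the minus strand and has 6 exons with a coding length of 768 bases.

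The PDX1 genes are related enough that shared reads had to be considered. Their coding sequences were 80.0% identical between PDX1.1 and PDX1.3, 68.2% between PDX1.2 and PDX1.3 and 66.8% between PDX1.1 and PDX1.2. The libraries carried 3′ ends, and within the last 300 bases of the transcripts the longest run of identical bases was 8 for PDX1.1 with either relative and 11 for PDX1.2 with PDX1.3. PDX1.2 also overlaps 2 annotated genes on the other strand, AT3G16040 by 3 bases at its 3′ end and the long non-coding RNA AT3G03215 over 259 bases. Neither was analysed here, and the strand setting of the counting is not given in the sources used here. Reads within the shared stretches could therefore not be told apart from those of PDX1.2, and their part in its counts was not tested. PDX1.1 ends 19 bases from the end of AT2G38240, which lies on the opposite strand.

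The region before PDX1.2 is shown because it is the member that moved with the dye. These are the 250 bases before its annotated start, chr3:5445330-5445579, on the minus strand and read toward the gene. Capitals mark a W-box core (TTGAC, bound by WRKY factors) that begins 129 bases before the start, and a G-box (CACGTG, bound by bZIP and bHLH factors) that begins 64 bases before it.
PDX1.2 upstream: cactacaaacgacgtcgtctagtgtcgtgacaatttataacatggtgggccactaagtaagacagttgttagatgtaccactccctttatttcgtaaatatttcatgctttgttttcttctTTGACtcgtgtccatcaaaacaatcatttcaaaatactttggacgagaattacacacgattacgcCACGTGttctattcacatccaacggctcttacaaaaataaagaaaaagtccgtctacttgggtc

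Both strands were searched, in the 250 bases before and the 250 bases after the annotated start, for CACGTG, for TTGAC and for GAANNTTC and TTCNNGAA, the 2 cores of the element that heat shock factors bind, which can overlap each other. The motifs and windows were chosen after the values of these genes had been seen. PDX1.2 was the 1 member of the 4 with CACGTG before its start, a match that 6.49% of 27443 windows held. TTGAC stood before PDX1.1, PDX1.2 and PDX1.3 but also in 44.9% of all windows. No member held GAANNTTC or TTCNNGAA before its start, where 9.55% and 7.68% of windows did. PDX1.2 alone among the 4 held GAANNTTC after the start, at base 100, as 12.6% of 27444 windows did. These matches are descriptions of letters and not of sites in use.

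The 12 libraries held 1499791 to 3608636 reads, and 1 read was worth 0.262 to 0.615 CPM. Root markers summed to 136 to 209 CPM at RB 0 µM and 58.0 to 72.7 CPM at 400 µM, and green shoot markers to 24940 to 26000 and 19570 to 24850 CPM, with all 6 markers of each list measured and none at 0 in any dose group, so markers of both organs were present in tissue labelled as whole seedlings. The shoot sum was 19730 to 22470 CPM at 10 µM and 17530 to 20860 CPM at 100 µM, and so lay below the untreated range at every dose. Called lower than at RB 0 µM at 10, 100 and 400 µM were 3, 3 and 5 of the 6 root markers and 1, 4 and 2 of the 6 shoot markers, beside 1.07%, 4.22% and 6.43% of all genes. The part of either organ in the results was not tested. In such bulk samples, fewer cells of a type and less RNA per cell cannot be told apart. After group means were removed, 1 component held 33.4% of the variance of 6904 genes. The 3 libraries with the highest scores on it are called here those that stand apart. They were replicate 1 of RB 10 µM, replicate 1 of RB 100 µM and replicate 2 of RB 400 µM. Their scores were 0.363, 0.654 and 0.282, beside -0.383 to 0.104 in the other 9. Removing group means makes the scores of a dose balance, and RB 100 µM replicate 2 lay at -0.383. The name therefore does not mark the 3 as outliers.

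PDX1.2 was read 35, 29 and 30 times in the untreated libraries, at 14.1, 9.18 and 13.0 CPM. At 10 µM it stood at 59.2, 35.2 and 47.4 CPM, from 168, 134 and 77 reads. At 100 µM it stood at 65.1, 35.6 and 40.6 CPM, and at 400 µM at 39.2, 61.8 and 47.8 CPM. The lowest treated library was above the highest untreated one by more than the whole range of the untreated group, a separation of all 9 from all 3 that 667 of the 13307 genes (5.01%) showed in this direction. Within each dose the highest value belonged to the library that stands apart on the component, and the part of that component in the spread was not tested.

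**Figure D1:**
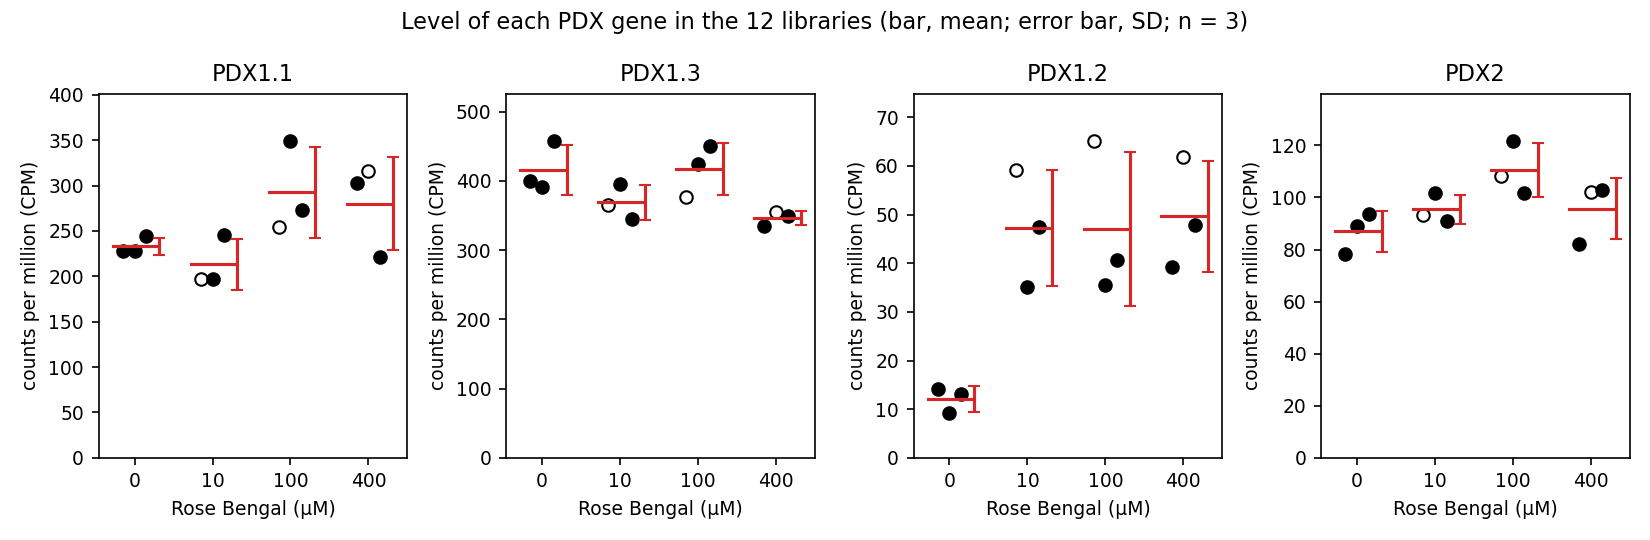
Level of each PDX gene in CPM (vertical axes, each from 0) against the Rose Bengal dose in µM. Each point is 1 library, bars are means and error bars SD (n = 3), and open points mark the 3 libraries that stand apart; PDX1.2 lies between 9.18 and 14.1 CPM without the dye and between 35.2 and 65.1 CPM with it.

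The question of the comparisons with RB 0 µM was which of these genes responded to the dye, tested with edgeR's quasi-likelihood model over all 13307 genes at a Benjamini-Hochberg adjusted p under 0.05. At 10 µM, PDX1.2 was 3.91-fold higher, a log2 fold change of 1.97 (SE 0.28, 95% interval of the fold 2.61 to 5.86, adjusted p = 0.000146). It was the 1 member of 4 called there, where 3.73% of all genes were called. At 100 µM the fold was 3.95 (log2 fold change 1.98, SE 0.28, interval 2.64 to 5.92, adjusted p = 4.57e-05), again the 1 member called, beside 11.5% of all genes. At 400 µM the fold was 4.12 (log2 fold change 2.04, SE 0.28, interval 2.75 to 6.19, adjusted p = 2.6e-05), and 15.5% of all genes were called. The change of PDX1.2 exceeded that of 96.7%, 97.0% and 96.5% of genes at the 3 doses. The 3 comparisons share the untreated libraries.

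Without the 3 libraries that stand apart, the log2 fold change of PDX1.2 was 1.75 at 10 µM, 1.67 at 100 µM and 1.87 at 400 µM. It stayed called at every dose in each of 20 alternative settings, with a highest adjusted p of 0.00246 at 10 µM, 0.000853 at 100 µM and 0.000482 at 400 µM. In edgeR's F test over the 3 doses together, PDX1.2 had an adjusted p of 8.27e-05, and it was the 1 member called beside 14.6% of all genes.

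Between the doses, PDX1.2 gave no detectable difference. The order of its means was 0, 100, 10 and 400 µM, and the 3 treated means lay within each other's SD. From 10 to 100 µM its log2 fold change was 0.01 (SE 0.25, adjusted p = 0.983), with a 95% interval of the fold from 0.706 to 1.45. From 100 to 400 µM it was 0.06 (SE 0.25, adjusted p = 0.985), with an interval from 0.727 to 1.5. From 10 to 400 µM it was 0.08 (SE 0.25, adjusted p = 0.901), with an interval from 0.735 to 1.51. These intervals allow a level up to 1.51-fold higher, and also one as low as 0.706 times, at the higher of 2 doses. No member was called in these comparisons by edgeR or DESeq2, and 1 of 4 in each had an unadjusted p under 0.05. Of all genes, edgeR called 4.47% from 10 to 100 µM, 0.0451% from 100 to 400 µM and 7.68% from 10 to 400 µM.

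**Figure D2:**
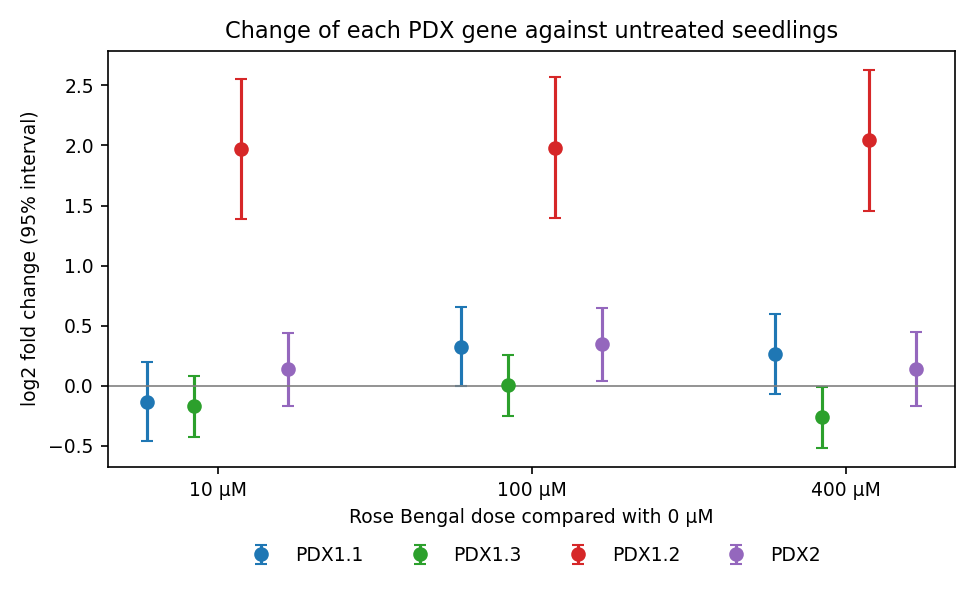
Log2 fold change of each PDX gene against RB 0 µM (vertical axis) at each Rose Bengal dose (horizontal axis), as points with 95% intervals from the edgeR fit. The 3 intervals of PDX1.2 start at 1.39 or higher, and those of the other genes lie between -0.52 and 0.65.

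PDX1.1, a catalytic synthase, stood at 228, 228 and 244 CPM without the dye. It stood at 197, 197 and 245 CPM at 10 µM, at 255, 349 and 273 CPM at 100 µM and at 303, 316 and 221 CPM at 400 µM. The untreated libraries were close together, with a coefficient of variation of 4.01%, while at 100 and 400 µM it was 17.1% and 18.5%. Against RB 0 µM the log2 fold change was -0.13 (SE 0.16, adjusted p = 0.791) at 10 µM, 0.33 (SE 0.16, adjusted p = 0.221) at 100 µM and 0.26 (SE 0.16, adjusted p = 0.314) at 400 µM. At 100 µM all 3 libraries were above the untreated ones, as in 14% of genes, but the interval of the fold ran from 0.997 to 1.57.

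The widest gap of PDX1.1 was between 10 and 100 µM, with means of 213 ± 28.01 and 292 ± 49.9 CPM. Its log2 fold change there was 0.46 (SE 0.16, unadjusted p = 0.00909, adjusted p = 0.102), and the groups did not overlap, as in 10.6% of genes in this direction. Without RB 100 µM replicate 1, the lowest of its dose and 1 of the 3 that stand apart, it was 0.55 (adjusted p = 0.0356). From 10 to 400 µM PDX1.1 gave 0.40 (SE 0.16, adjusted p = 0.137), with overlapping groups. The order of its means was 10, 0, 400 and 100 µM, and no neighbours in it passed the test.

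PDX1.3, the other catalytic synthase, stood at 399, 391 and 458 CPM without the dye. It stood at 366, 396 and 345 CPM at 10 µM, at 377, 424 and 451 CPM at 100 µM and at 336, 355 and 350 CPM at 400 µM. The 400 µM libraries were the most alike, with a mean of 347 CPM and a coefficient of variation of 2.91%, and all lay below the 3 untreated and the 3 libraries of 100 µM. Its log2 fold change was -0.17 (SE 0.12, adjusted p = 0.586) at 10 µM, 0.0044 (SE 0.12, adjusted p = 0.987) at 100 µM and -0.26 (SE 0.12, unadjusted p = 0.0435, adjusted p = 0.172) at 400 µM.

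Whether the lower level of PDX1.3 at 400 µM passed the test depended on the scaling of the libraries. Its log2 fold change was -0.37 to -0.19 over 20 alternatives, of which 1 passed. The groups did not overlap, as in 17% of genes in this direction, and the interval of the fold was 0.699 to 0.994. With libraries scaled by their totals alone, which lowers the median of all genes by 0.111 on the log2 scale, PDX1.3 gave -0.37 and passed the test (adjusted p = 0.0241). From 100 to 400 µM its log2 fold change was -0.27 (SE 0.12, adjusted p = 0.601) without overlap, as in 6.39% of genes. The order of its means was 400, 10, 0 and 100 µM, with no neighbours past the test.

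PDX2, the glutaminase partner, stood at 78.3, 88.9 and 93.8 CPM without the dye. It stood at 93.3, 102 and 91.0 CPM at 10 µM, at 108, 122 and 102 CPM at 100 µM and at 82.1, 102 and 103 CPM at 400 µM. The libraries of 100 µM were all above the untreated ones, as in 14% of genes, while the other doses overlapped them. Its log2 fold change was 0.14 (SE 0.15, adjusted p = 0.766) at 10 µM, 0.34 (SE 0.15, unadjusted p = 0.029, adjusted p = 0.152) at 100 µM and 0.14 (SE 0.15, adjusted p = 0.616) at 400 µM. At 100 µM the interval of the fold was 1.03 to 1.57, and PDX2 was not called after adjustment over all genes. The order of its means was 0, 10, 400 and 100 µM, with no neighbours past the test.

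To compare the members with each other, the log2 ratio of 2 genes was taken within each library, where the scaling of libraries cancels, and the 9 treated libraries were set against the 3 untreated ones. A two-sided exact permutation test was used, whose smallest p is 0.00909 over 220 splits, with Benjamini-Hochberg adjustment over 6 ratios. The ratio of PDX1.2 to PDX1.1 was higher by 1.76 on the log2 scale, at -3.27 to -1.72 with the dye and -4.52 to -3.93 without it. The ratio of PDX1.2 to PDX1.3 was higher by 2.04, and that of PDX1.2 to PDX2 by 1.70. Each of these 3 ratios was higher in 9 of 9 treated libraries, with the smallest p the exact test allows (adjusted p = 0.0182). All 3 hold PDX1.2, whose own CPM separated the 9 treated from the 3 untreated libraries, as in 5.01% of genes in this direction. The 3 ratios therefore restate that separation and are not 3 separate findings. By dose, the shift of PDX1.2 against PDX1.3 was 2.06 at 10 µM, 1.86 at 100 µM and 2.22 at 400 µM, where 3 libraries against 3 cannot go below an exact p of 0.1.

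The ratios among the other members moved less. PDX1.3 fell against PDX2 by 0.35 on the log2 scale (exact permutation p = 0.0182, adjusted p = 0.0273), with 1.76 to 2.14 in the treated and 2.13 to 2.34 in the untreated libraries, ranges that just overlap. The ratio of PDX1.1 to PDX1.3 was higher by 0.28 (adjusted p = 0.174), and that of PDX1.1 to PDX2 was lower by 0.06 (adjusted p = 0.727), neither past the exact permutation test. These means cover doses that differed. Against PDX1.3 the shift of PDX1.1 was 0.04 at 10 µM, 0.31 at 100 µM and 0.51 at 400 µM. At 100 and 400 µM its exact permutation p was 0.1, the smallest that 3 libraries against 3 allow. Against PDX2 the shift of PDX1.1 was -0.27, -0.03 and 0.11 at these doses. Leaving out RB 0 µM replicate 1, 2 or 3 left 55 splits and a smallest p of 0.0364, and then none of the 4 called ratios kept its call (adjusted p from 0.0546 to 0.109 over these ratios). The shifts of the PDX1.2 ratios stayed at 1.51 or more in these settings. Without the 3 libraries that stand apart, PDX1.2 kept its 3 calls at 1.55, 1.83 and 1.51, while PDX1.3 against PDX2 gave -0.32 (adjusted p = 0.0714).

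**Figure D3:**
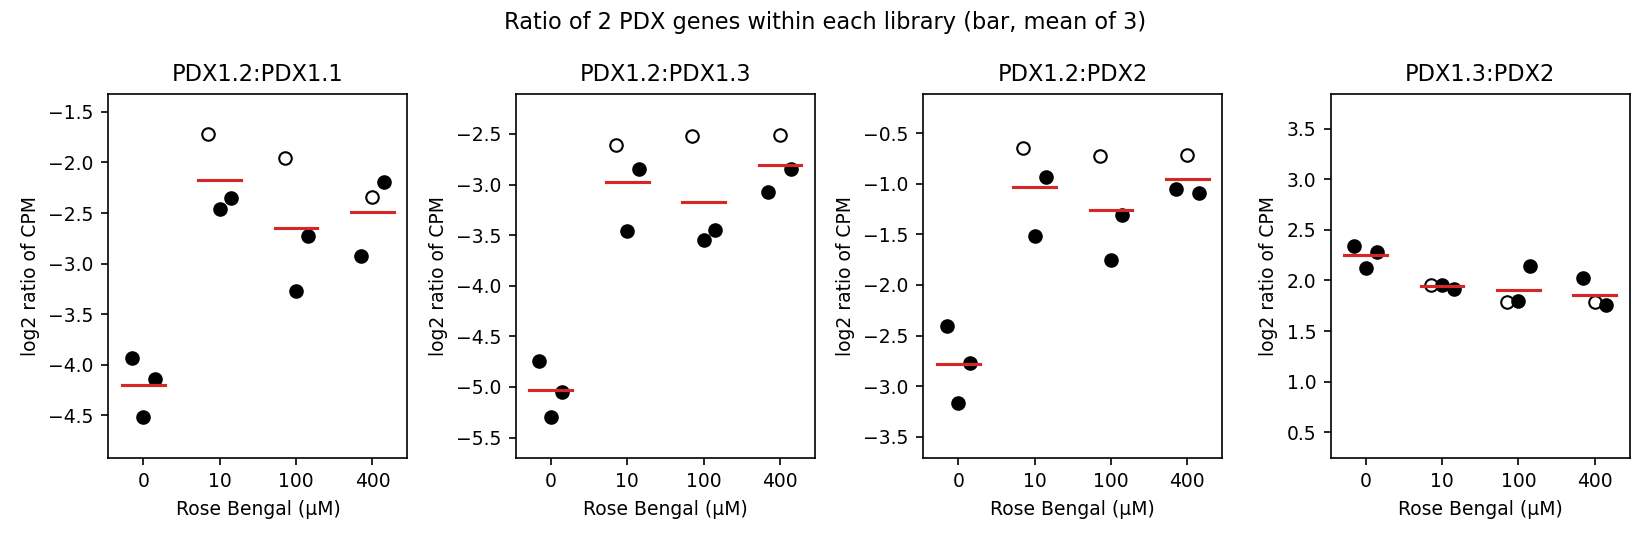
Log2 ratio of the CPM of 2 PDX genes within each library (vertical axes, all spanning the same number of log2 units) against the Rose Bengal dose in µM. Points are libraries, bars are means of 3 and open points mark the libraries that stand apart; the ratios of PDX1.2 are higher in all 9 treated libraries, and that of PDX1.3 to PDX2 is lower by 0.35 on average.

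The genes whose pattern over the 12 libraries was most like that of PDX1.2 were sought among the 6903 other genes averaging 10 CPM or more, by Pearson's r of log2 CPM. These were HSP90.1 (AT5G52640, a cytosolic chaperone, r = 0.964), BAG6 (AT2G46240, a calmodulin-binding co-chaperone, r = 0.959), GolS1 (AT2G47180, a galactinol synthase, r = 0.952), HSP17.6II (AT5G12020, a small heat shock protein, r = 0.951) and MBF1C (AT3G24500, a transcriptional coactivator, r = 0.949). Each r takes in the difference between the 3 untreated and the 9 treated libraries, and no test is attached to it. Within the 9 treated libraries r was 0.866 for GolS1 and 0.457 to 0.69 for the other 4. By ranks, Spearman's rho was 0.776 to 0.902 and 1 of the 5 genes was also among the first 5. Without the 3 libraries that stand apart, r was 0.949 to 0.978.

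These 5 genes shared with PDX1.2 a rise at 10 µM, and differed from it in size. HSP90.1 went from 66.9 ± 2.66 CPM without the dye to 461 ± 109, 409 ± 106 and 368 ± 23.1 CPM at 10, 100 and 400 µM. BAG6 went from 4.65 ± 1.31 to 171 ± 109, 211 ± 21.4 and 158 ± 36.2 CPM. GolS1 went from 27.2 ± 4.15 to 162 ± 73.4, 125 ± 59.95 and 112 ± 31.6 CPM. At 100 and 400 µM its log2 fold change against RB 0 µM (2.21 and 2.04) was the nearest to that of PDX1.2, while at 10 µM that of MBF1C (2.23) was. Like PDX1.2, GolS1, BAG6 and HSP17.6II had their highest value at each dose in the library that stands apart. Each of the 5 was called by edgeR at every dose and in 20 of 20 alternatives, and none was called between the treated doses. Of all genes, 2.66%, 7.32% and 9.11% were called higher at 10, 100 and 400 µM. The 5 were picked for their likeness to PDX1.2 in these same libraries, so these calls follow from that choice and add no support. From 10 to 400 µM the log2 fold changes of the 5 genes ran from -0.53 (GolS1) to 0.10 (MBF1C). From 10 to 100 µM they ran from -0.36 (GolS1) to 0.52 (HSP17.6II, SE 0.19, unadjusted p = 0.0118, edgeR adjusted p = 0.117). HSP17.6II stood at 512 ± 185 CPM at 10 µM, 734 ± 51.6 CPM at 100 µM and 513 ± 33.1 CPM at 400 µM, and its libraries of 400 µM were all below those of 100 µM, as in 6.39% of genes. HSP17.6II has a close relative beside it in the genome, so its counts are uncertain.

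**Figure D4:**
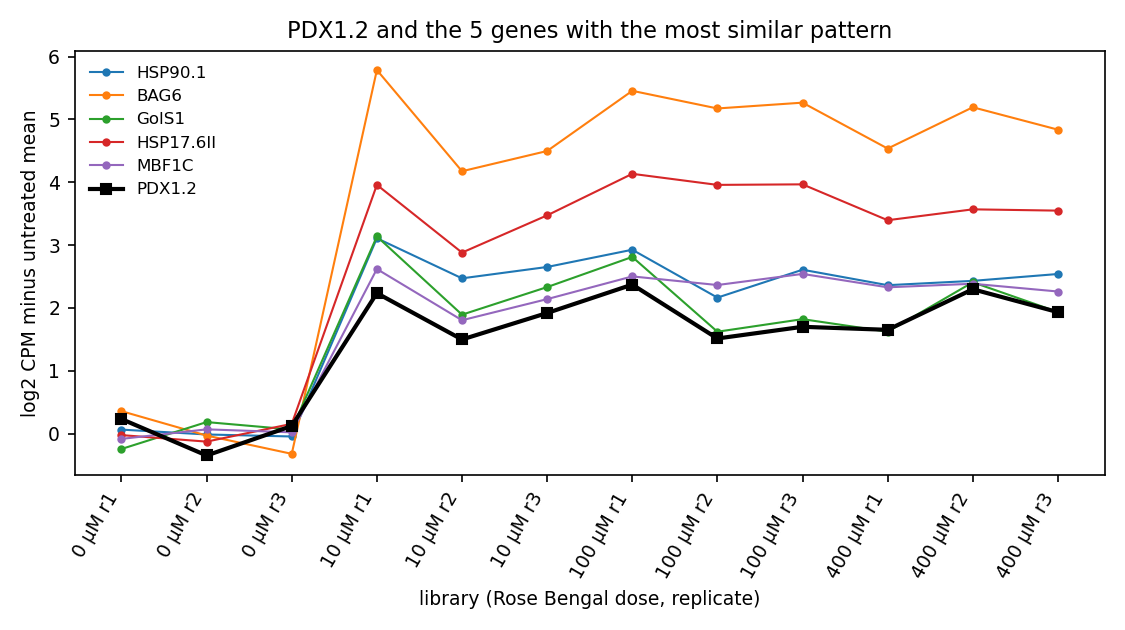
Log2 CPM of PDX1.2 (black squares) and of the 5 genes with the most similar pattern, as the difference from the untreated mean (vertical axis), in each of the 12 libraries (horizontal axis; lines only join the points of a gene). All 6 genes lie near 0 in the untreated libraries and higher in each of the 9 treated ones.

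The heat shock element cores around the starts of these genes are shown for comparison with the match in PDX1.2, with the core in capitals and 10 bases on either side. The match of PDX1.2 lies after its start, at chr3:5445213-5445240, and so do those of HSP17.6II, at chr5:3883036-3883063, and MBF1C, at chr3:8918358-8918385. BAG6, at chr2:18986089-18986116, and GolS1, at chr2:19370556-19370583 and overlapping it at chr2:19370561-19370588, have theirs before the start. Over all windows, GAANNTTC stood after the start in 12.6% and TTCNNGAA in 10%. Before the start the shares were 9.55% and 7.68%. The windows of HSP90.1 held neither core, which says only that these letters are not in them. Before the start, CACGTG stood in BAG6 and GolS1 as in PDX1.2. It was absent before HSP90.1, HSP17.6II and MBF1C, and 6.49% of all windows held it.
PDX1.2: aacagtctcaGAAGTTTCtagaccaaac
HSP17.6II: accaagacgtTTCTCGAAcaatacggaa
MBF1C: aataattcggTTCTGGAAgtaagggatc
BAG6: gaaacgaagaGAAAATTCcagatttttc
GolS1: ccactttccaGAACTTTCacggtttcac
GolS1, second: cggtcccactTTCCAGAActttcacggt

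The patterns most like those of the other members were of another kind, as those members changed little. For PDX1.1 the nearest genes were AT2G36930 (r = 0.939) and EMB3113 (AT2G33800, r = 0.932), and 2 of its 5 nearest were the same by ranks. For PDX1.3 the nearest were YLS2 (AT3G51430, r = 0.903) and PSY1 (AT5G58650, r = 0.888), with 3 of 5 the same by ranks. Both fell at 400 µM, by 0.57 (SE 0.15, adjusted p = 0.0155) and 0.52 (SE 0.17, adjusted p = 0.0489) on the log2 scale in edgeR's test. There 6.43% of all genes were called lower. YLS2 and PSY1 were picked for their likeness to PDX1.3 in these same libraries, so their fall is no separate support for a lower PDX1.3. For PDX2 the nearest were AT3G48115 (r = 0.853) and AT4G02880 (r = 0.846), with 2 of 5 the same by ranks.

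Of the salvage route, which interconverts B6 vitamers without new synthesis, 4 of 5 listed genes were measured and none was called against RB 0 µM by edgeR or DESeq2, nor had any an unadjusted p under 0.05. Of all genes, 3.73%, 11.5% and 15.5% were called at the 3 doses. The 4 were SOS4, a pyridoxal kinase, PLR1, a pyridoxal reductase, and AT1G11930 and AT4G26860, of a PLP-binding family. PDX3, the oxidase of the route, was not analysed here. SOS4 stood at 0.490 to 1.2 CPM and PLR1 at 0.739 to 1.67 CPM as group means, so that a few reads decided their values. AT1G11930 stood at 94.9 to 108 CPM as group means and gave log2 fold changes of 0.05, 0.12 and 0.18 at 10, 100 and 400 µM. AT4G26860 stood at 37.4 CPM without the dye and at 31.8, 48.5 and 38.2 CPM with it, with log2 fold changes of -0.21, 0.37 and 0.03, and at 100 µM its libraries were all above the untreated ones, as in 14% of genes. The median log2 fold change of the list was 0.05, 0.25 and 0.02, beside 0.02, -0.04 and -0.04 over all genes.

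Among enzymes that supply the substrates of PDX1 and PDX2, 10 of 12 listed genes were measured, and 1, 3 and 3 were called at 10, 100 and 400 µM, beside 3.73%, 11.5% and 15.5% of all genes. RSW10 (AT1G71100), a ribose 5-phosphate isomerase, rose from 57.1 ± 2.03 CPM to 95.6 ± 9.90, 122 ± 10.5 and 130 ± 15.8 CPM. Its log2 fold change was 0.74 (SE 0.15, adjusted p = 0.00455), 1.099 (SE 0.15, adjusted p = 2.79e-05) and 1.18 (SE 0.15, adjusted p = 9.1e-06). EMB3119 (AT3G04790), another ribose 5-phosphate isomerase, fell by 0.65 (SE 0.13, adjusted p = 0.00245) at 100 µM and by 0.78 (SE 0.13, adjusted p = 0.000327) at 400 µM. At 10 µM it gave -0.45 (adjusted p = 0.0726) and was called lower in 4 of 20 alternatives, namely filterByExpr (adjusted p = 0.0448), DESeq2 (0.0495) and the fits without RB 100 µM replicate 1 (0.0486) or 3 (0.0473). The 2 isomerases thus moved in opposite directions at these doses, and RPI2 (AT2G01290), also of this activity, gave log2 fold changes of -0.19, 0.09 and -0.32 that were not called.

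GSR2 (AT1G66200), a cytosolic glutamine synthetase that makes the substrate of PDX2, went from 527 ± 42.3 CPM to 382 ± 40.0, 302 ± 80.2 and 336 ± 21.1 CPM. It fell by 0.80 (SE 0.16, adjusted p = 0.00207) at 100 µM and by 0.65 (SE 0.16, adjusted p = 0.00851) at 400 µM on the log2 scale. At 10 µM it gave -0.46 (SE 0.16, adjusted p = 0.146) and was called in 1 of 20 alternatives, without RB 100 µM replicate 2 (-0.47, adjusted p = 0.0361). The plastid form, GS2, gave -0.18, -0.12 and -0.10, and no other glutamine synthetase measured was called. The median of the substrate list was -0.15, -0.04 and -0.01. RSW10 at the 3 doses, and EMB3119 and GSR2 at 100 and 400 µM, kept their calls in 20 of 20 alternatives.

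Of the enzymes that use PLP, 39 of 43 listed were measured. At 10 µM 1 rose and none fell, at 100 µM 5 rose and 4 fell, and at 400 µM 6 rose and 2 fell, so that at 400 µM 31 of 39 were not called. Over all genes 2.66% rose and 1.07% fell at 10 µM, 7.32% and 4.22% at 100 µM, and 9.11% and 6.43% at 400 µM. The balance of rises and falls in the list depended on the setting. With library totals 4 rose and 6 fell at 400 µM, where over all genes 1030 rose and 1183 fell in place of 1212 and 856. At 100 µM library totals gave the list 5 and 4, and all genes 816 and 836 in place of 974 and 561. Without the 3 libraries that stand apart, the list gave 6 and 7 at 100 µM and 6 and 6 at 400 µM. With only the groups compared it gave 5 and 3 at 100 µM and 8 and 3 at 400 µM. Leaving out 1 library gave 3 to 5 rises and 1 to 5 falls at 100 µM, with 3 and 1 without RB 0 µM replicate 3 and with 2 falls when the library dropped was untreated replicate 1 or 2, or the second or the third replicate of 100 µM. At 400 µM it gave 4 to 6 rises and 2 to 4 falls, the most falls without RB 400 µM replicate 2. The median was -0.03, -0.07 and -0.18 on the log2 scale. GAD4 (AT2G02010), a glutamate decarboxylase that forms GABA, rose from 5.69 ± 0.340 CPM to 11.5 ± 1.78, 36.1 ± 8.64 and 74.5 ± 9.86 CPM, a log2 fold change of 3.70 (SE 0.23, adjusted p = 9.38e-10) at 400 µM. Its change at 10 µM, 1.03 (SE 0.26, adjusted p = 0.0299), was called in 13 of 20 alternatives, and it lost the call without RB 0 µM replicate 1 (1.07, adjusted p = 0.0797), 2 (0.98, adjusted p = 0.111) or 3 (1.03, adjusted p = 0.0886) and without RB 10 µM replicate 1 (0.93, adjusted p = 0.13) or 2 (1.05, adjusted p = 0.0513), with only the groups compared (1.02, adjusted p = 0.0686) and without the 3 libraries that stand apart (0.91, adjusted p = 0.0961).

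TSB1 (AT5G54810), a tryptophan synthase subunit, rose by 1.12 (SE 0.13) at 100 µM and 1.24 (SE 0.13) at 400 µM on the log2 scale. TAT3 (AT2G24850), a tyrosine aminotransferase, rose by 1.40 (SE 0.24) and 1.73 (SE 0.24), and AlaAT1 (AT1G17290), an alanine aminotransferase, by 0.92 (SE 0.21) and 1.07 (SE 0.21). Without RB 0 µM replicate 3 the change of AlaAT1 at 100 µM was 0.81 and lost its call (adjusted p = 0.061). GLDP1 (AT4G33010) and GLDP2 (AT2G26080), the P proteins of photorespiratory glycine decarboxylase, fell by 0.91 (SE 0.16) and 0.63 (SE 0.14) at 400 µM. As near copies, these may share reads. All of these edgeR calls at 400 µM held in 20 of 20 alternatives. At 10 µM the log2 fold changes of these 5 ran from -0.41 (GLDP2) to 0.49 (AlaAT1), none called.

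**Figure D5:**
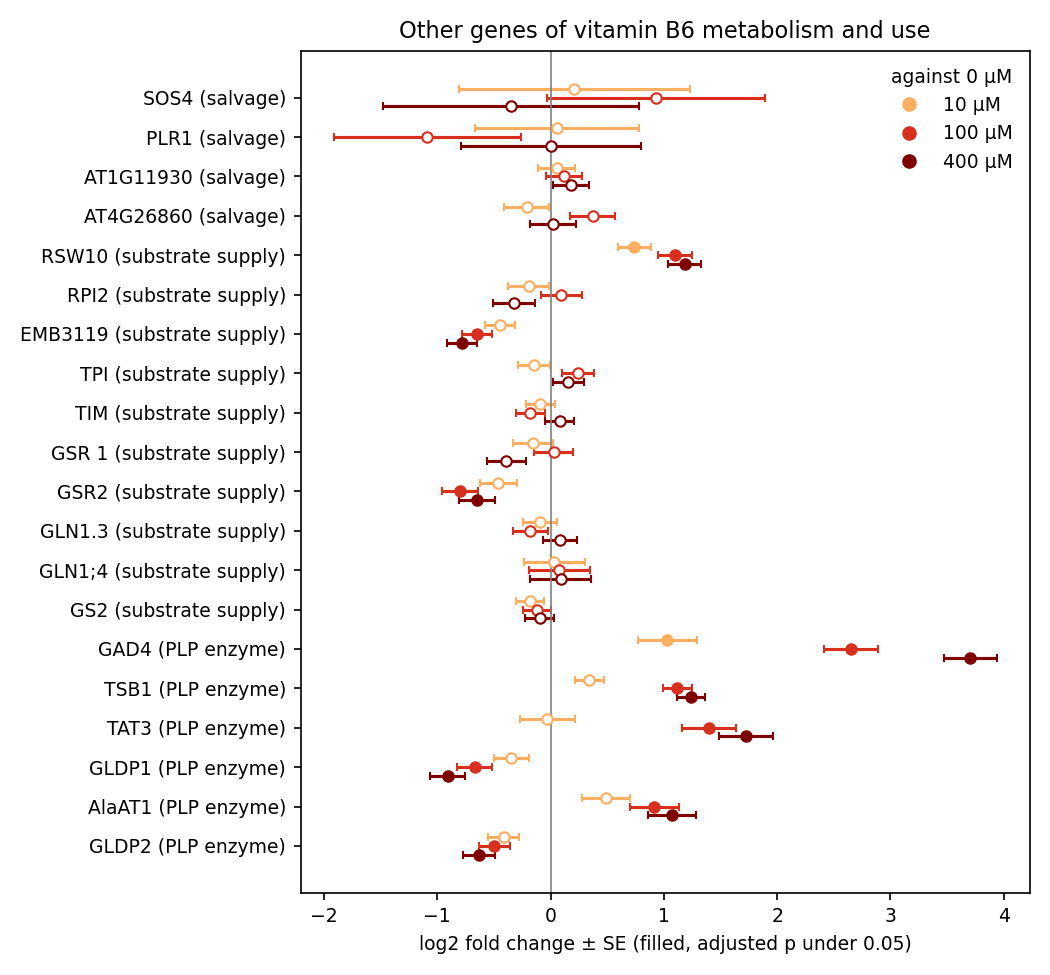
Log2 fold change against RB 0 µM with its SE (horizontal axis) for the measured salvage and substrate supply genes and for the 6 PLP enzymes with the smallest p in the F test (vertical axis), at 10, 100 and 400 µM Rose Bengal. Filled points passed the adjusted p of 0.05; the 4 salvage genes have none, and RSW10, GSR2 and EMB3119 are the called genes of substrate supply.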

How the data were processed

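RNA of 12 libraries was sequenced at its 3′ ends by MARS-seq. From the study's methods and the labels, the authors trimmed reads with cutadapt (1.8.3 in the submitters' processing notes), aligned them with STAR v2.4.2a to Araport 11 and obtained raw counts for each gene with HTSeq-count. The deposited normalized signal, raw counts divided by a size factor of each library by the authors with DESeq2, and the deposited regularized log2 values were not used. Counts have no filter on molecular identifiers and can hold PCR duplicates. The study assigns this series to a different treatment than the labels do, and the labels were followed.

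Counts of 13307 genes with at least 5 reads in at least 1 sample, a filter that removed none, were fitted in R 4.3.3 with edgeR 4.0.16 (TMM factors, glmQLFit, glmQLFTest, all 12 libraries in 1 fit, two-sided), which was first tested on simulated data. The SE of a log2 fold change is its size over the square root of F. Log2 ratios used a prior count of 2. Intervals of folds are 95% and cover the spread between libraries. Alternatives were DESeq2 1.42.0 and its size factors, library totals, edgeR's filterByExpr, no filter, only the groups compared, the replicate block, leaving out each library and, an alternative chosen after seeing the data, the 3 libraries that stand apart left out at once. Sequences and gene models are from RefSeq's TAIR10.1, and 13214 (99.3%) of the identifiers matched a name. The members, lists and tests were chosen with earlier results of these data known. Genes named are the members, SOS4, PDX3 and PLR1, the called substrate genes, the 6 PLP enzymes of smallest p in the F test, and up to 5 nearest patterns for each member. RPI2, GS2 and both salvage family genes were named after their values were seen.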

Additional observations from a re-analysis of the deposited data

How the results depend on the processing

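PDX1.2 against RB 0 µM kept its direction and call in 20 of 20 alternatives at each dose, and the ratios of PDX1.2 kept their direction in 14 of 14. Values near 0 changed sign. For PDX1.3 at 100 against 0 µM the log2 fold change was -0.0053 with DESeq2 size factors, -0.11 with library totals, -0.0098 with filterByExpr and -0.0053 with DESeq2's test, and -0.038 to 0.073 when each library was left out. For PDX1.2 at 100 against 10 µM these 4 settings gave -0.0091, -0.14, -0.0036 and -0.015, only the groups compared gave -0.0070, without the 3 libraries that stand apart it was -0.085, and leaving out each library gave -0.30 to 0.22. At 400 against 10 µM PDX1.2 was -0.082 with library totals and -0.11 to 0.28 when libraries were left out, and at 400 against 100 µM -0.13 to 0.38. For PDX2 at 400 against 10 µM the values were -0.011 (DESeq2 size factors), -0.15 (library totals), -0.0040 (filterByExpr), -0.012 (DESeq2's test), -0.00083 (only the groups compared), -0.061 (without the 3 libraries) and -0.059 to 0.11 (each library left out). PDX1.1 at 400 against 100 µM ran from -0.17 to 0.11 over the libraries left out. None of these passed the test, and the cause was not tested. PDX1.3 at 400 against 0 µM passed with library totals alone (-0.37).

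Leaving out a library gave 1.60 to 1.89 for the log2 ratio of PDX1.2 to PDX1.1, 1.91 to 2.19 for that to PDX1.3, 1.51 to 1.89 for that to PDX2 and -0.41 to -0.30 for PDX1.3 to PDX2. The calls were lost with 2 untreated libraries, where fewer splits raise the smallest p, and that of PDX1.3 to PDX2 also without the 3 libraries (-0.32). The genes called by edgeR at 10 against 0 µM numbered 313 to 638 over the libraries left out, beside 497 with all. At 100 against 0 µM they numbered 1119 to 2027, and 2359 without the 3 libraries, beside 1535. At 100 against 10 µM they were 226 to 1530, 131 with only the groups compared and 1188 without the 3 libraries, beside 595. At 400 against 100 µM they were 0 to 116, 28 by DESeq2 and 126 without the 3 libraries, beside 6, and the settings with 0 had 734 to 1138 genes at an unadjusted p under 0.05. At 400 against 10 µM they were 598 to 1377, beside 1022. The replicate numbers were not taken to pair the libraries, as 4 of 18 same-numbered pairs deviated together with r over 0.1, the highest at 0.419. Libraries with different numbers were not compared in this way, so this does not show that pairing is absent. With the number as a replicate block, PDX1.2 gave 1.95, 1.96 and 2.08 at 10, 100 and 400 µM, PDX2 at 400 against 10 µM gave -0.00059 and 10 genes were called at 400 against 100 µM, and no call of a member changed. By ranks, 2, 1, 3 and 2 of the 5 nearest genes stayed for PDX1.1, PDX1.2, PDX1.3 and PDX2.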
